A study of Homo sapiens with 13 samples.

Results

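The genes described here are those of the ATF4 response to amino acid and translation stress, a set of 38 listed genes with roles from sensing to transport. A gene was measured where the array annotation gave its symbol alone to a row, and the row with the highest mean over the 13 arrays stood for a gene with several rows. By that rule 36 of the 38 had a row, of 18377 genes in all. CBS and GPT2 had no such row and are not analysed here.

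RNA came from HepG2, a human hepatoblastoma line, and from HepG2S1, which per the labels was raised from HepG2 by stepwise increases of sorafenib over months and then kept under the drug. Sorafenib is a multikinase inhibitor given to patients with liver cancer. Each sample was 1 flask, harvested after 72 h and read on 1 whole-transcript array, and all flasks had the same medium. The groups were HepG2S1 withdrawn from sorafenib at 20% O2 (n = 3), HepG2S1 with 6 µM sorafenib at 2% O2 (n = 3), HepG2S1 with 6 µM sorafenib at 20% O2 (n = 4), and HepG2 never given sorafenib at 20% O2 (n = 3). The drug was dissolved in DMSO, and the labels do not state whether flasks without the drug received the solvent. HepG2S1 is 1 line, so what selection and the drug each contributed to its difference from HepG2 cannot be told apart. Whether the flasks came from separate cultures is not stated, and p-values measure the spread between these flasks.

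ATF4 is a bZIP transcription factor made mainly when the translation factor eIF2 is phosphorylated on its alpha subunit. That happens when kinases sense unfolded protein in the endoplasmic reticulum (PERK), uncharged tRNA (GCN2) or other stress, and it slows most protein synthesis while the ATF4 message is translated. ATF4 then binds composite C/EBP-ATF elements with C/EBP partners and raises genes for amino acid synthesis, amino acid uptake and tRNA charging, together with regulators such as CHOP that can end in cell death. ATF4 itself is set largely at translation, so its mRNA level is a limited measure of its activity.

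The arrays were alike within groups, with correlations of 0.995 to 0.998 between arrays of the same group and array medians of 7.30 to 7.42 on the log2 scale. Their number limits the precision. The label of the HepG2S1 line was checked against hepatocyte genes. The mean of 10 hepatocyte markers lay at 5.95 to 5.98 in withdrawn HepG2S1 arrays, 5.85 to 5.93 with the drug at 2% O2 and 5.94 to 6.00 with it at 20% O2, against 12.84 to 12.88 in HepG2 arrays. ALB, AFP, APOH and FGB, 4 of those 10, lay below the typical lower quartile of an array (5.76) in each HepG2S1 group, and none did in HepG2. The fibroblast genes DCN and LUM averaged 10.59 and 10.21 in HepG2S1 with the drug at 20% O2, against 5.16 and 5.20 in HepG2. The means of 9 fibroblast markers ran from 8.17 to 8.21 in withdrawn arrays, up to 8.04 with the drug at 2% O2 and 8.02 to 8.07 with it at 20% O2, against 6.43 to 6.57 in HepG2. Of those 9, 3 were called higher with the drug than in HepG2 and 6 were not called (median 0.07), so a few genes carry the list means. On withdrawal DCN and LUM rose by 0.82 and 0.73 and the other 7 had no call, and at 2% O2 DCN rose by 0.52 and PDGFRA fell by 0.24. PDGFRA averaged 5.49 at 2% O2 and 5.72 at 20% O2 with the drug, both below the lower quartile of 5.76. The means of 6 leukocyte markers ran from 6.40 to 6.44 in withdrawn arrays, 6.49 to 6.60 with the drug at 2% O2 and 6.56 to 6.63 with it at 20% O2, against 7.87 to 7.99 in HepG2. Among them LYZ, the lysozyme gene, averaged 4.76 with the drug at 20% O2 and 13.12 in HepG2, while CD68 averaged 12.08 with the drug at 20% O2 and 11.29 in HepG2 and fell by 0.55 on withdrawal. PTPRC, the pan-leukocyte marker, lay at 4.33 to 4.41 in all 4 groups. Endothelial list means lay at 5.82 to 6.30. In these markers HepG2S1 did not resemble the line it is labelled as raised from. Its descent from HepG2 rests on the labels and was not tested here, so each value against HepG2 compares the lines as labelled. The part of these markers in the results was not tested. In whole-flask RNA, fewer cells of a type and less RNA per cell cannot be told apart.

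The letters TGATGNAA make up the core of the C/EBP-ATF element, and they were searched on both strands in the 250 bases before each gene's start, from RefSeq on GRCh38.p14. A single entry stood for each gene among the listed and the tested genes, so any other start of a gene was not searched there. Of the 38 listed genes 31 matched a promoter entry, and 4 of these 31 (12.9%) held the letters. They occurred in 312 of 14210 promoters of tested genes (2.20%) and in 1104 of all 35116 promoters (3.14%). The 4 were ASNS, CHAC1, ATF3 and FGF21. Windows are shown for the 3 whose RNA changed on drug withdrawal, with the matching letters in capitals and 20 bases on each side.
ASNS (chr7:97872449-97872496, minus strand, match 68 bases before the start): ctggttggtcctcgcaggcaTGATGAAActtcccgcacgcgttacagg
CHAC1 (chr15:40953242-40953289, plus strand, match on the opposite strand 209 bases before the start): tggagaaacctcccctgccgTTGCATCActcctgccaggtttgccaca
ATF3 (chr1:212565196-212565243, plus strand, match 191 bases before the start): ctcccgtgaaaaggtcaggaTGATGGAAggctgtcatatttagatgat
The ASNS match is the element through which amino acid limitation is known to raise that gene. A match describes letters and not binding in these cells. These 3 genes did not move alike, since ASNS fell on withdrawal while CHAC1 and ATF3 rose.

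Taking the drug away lowered 16 of the 36 measured genes and raised 7, at an adjusted p of 0.05 in limma. Over all genes tested, 7.90% were lower and 10.1% were higher in withdrawn HepG2S1 than in HepG2S1 with the drug at 20% O2. The genes that fell were led by ASNS, ALDH1L2 and NUPR1, and they included ATF4 itself and most of the serine and folate enzymes. The median change over the 36 genes was -0.12 on the log2 scale, against -0.02 over all genes. The arrays of the groups did not overlap for 30 of the 36, all 23 called genes among them, and for 30.2% of all genes.

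Lowering oxygen under the drug raised 9 of the 36 and lowered 4, where 8.99% of all genes were higher and 6.17% lower. VLDLR and STC2 were far ahead of the rest, and CTH fell most. The median change was 0.03, against -0.03 over all genes. Arrays did not overlap for 17 of the 36, and for 28.2% of all genes. With each array shifted to a common 75th percentile, 6 of the 36 were higher and 7 lower, and of all calls 35.2% were higher in place of 59.3%. NUPR1 (-0.16), PPP1R15A (0.27) and XPOT (-0.17) had no call at 2% O2 but gained one without some single arrays.

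HepG2S1 with the drug at 20% O2, set against HepG2, had 22 of the 36 lower and 8 higher, where 27.2% of all genes were lower and 30.1% higher. DDIT3 and CHAC1 were higher by the most, and 6 of the 7 amino acid transporters were lower. The median was -0.30, against 0.01 over all genes, and arrays did not overlap for 32 of the 36, against 56.2% of all genes. Withdrawn HepG2S1 had 23 lower and 6 higher than HepG2, where 27.0% of all genes were lower and 29.6% higher, and the median was -0.52 against -0.01. Arrays did not overlap there for 31 of the 36, and for 60.4% of all genes.

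Of the 36 measured genes, 35 lay above the 33rd percentile of mean level, FGF21 being the exception. Among the 12312 genes above that level, 12.8% were lower and 16.5% higher on withdrawal, 9.23% lower and 14.4% higher at 2% O2, and 32.3% lower and 40.9% higher in HepG2S1 with the drug than in HepG2.

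**Figure D1:**
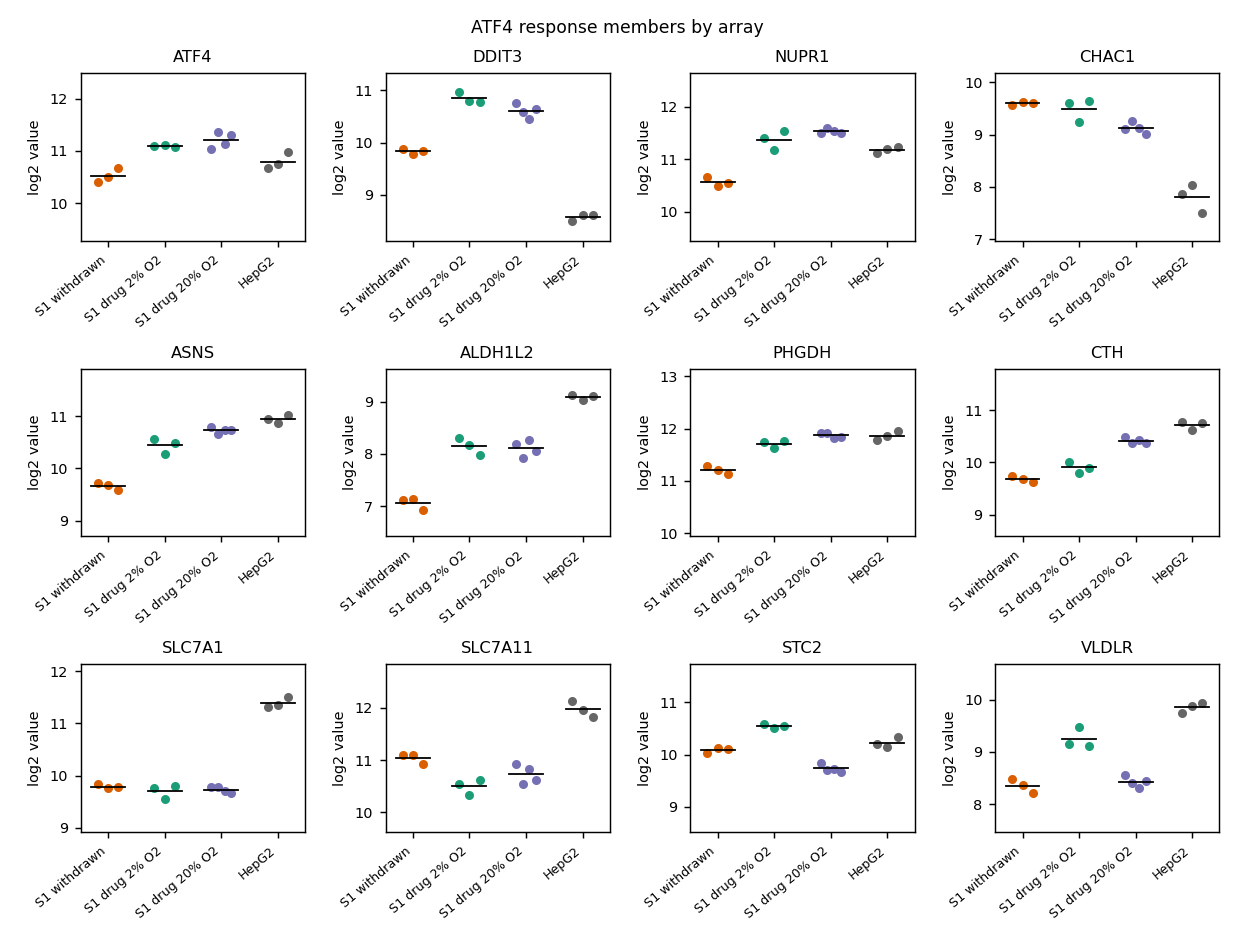
Log2 array values (y axes of equal span, each centred on its own gene) of 12 genes of the response in withdrawn HepG2S1 (n = 3), HepG2S1 with sorafenib at 2% O2 (n = 3) and at 20% O2 (n = 4), and HepG2 (n = 3). Each point is 1 array and each line the group mean. DDIT3 lay at 10.46 to 10.96 in all 7 arrays with the drug, at 9.79 to 9.89 after withdrawal and at 8.49 to 8.62 in HepG2.

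The transcription regulators gave opposite movements. ATF4 read 10.41, 10.50 and 10.66 in withdrawn HepG2S1, 11.10, 11.11 and 11.07 with the drug at 2% O2, 11.04, 11.36, 11.13 and 11.31 with it at 20% O2, and 10.67, 10.74 and 10.97 in HepG2. All 7 arrays with the drug lay above the 6 without it. ATF4 fell on withdrawal by 0.69 (log2, SE 0.09, limma adjusted p = 9.74e-05) and was higher in HepG2S1 with the drug than in HepG2 by 0.42 (SE 0.09, limma adjusted p = 0.000662). Against HepG2, withdrawn HepG2S1 stood at -0.27 (limma adjusted p = 0.024), a call lost without withdrawn replicate 1 or 2 or HepG2 replicate 3 (limma adjusted p = 0.0648 to 0.127).

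DDIT3 encodes CHOP, the factor that links the response to apoptosis. It read 9.89, 9.79 and 9.84 after withdrawal, 10.96, 10.80 and 10.77 with the drug at 2% O2, 10.75, 10.60, 10.46 and 10.64 with it at 20% O2, and 8.49, 8.62 and 8.61 in HepG2. The groups with and without the drug did not overlap, and every HepG2S1 array lay above every HepG2 array. Its change against HepG2 was 2.03 (SE 0.07), a 4.10-fold level, in HepG2S1 with the drug and 1.26 (SE 0.07) after withdrawal. On withdrawal it fell by 0.77 (SE 0.07, limma adjusted p = 6.35e-06). At 2% O2 it was 0.24 higher than at 20% O2 (limma adjusted p = 0.0355), and this call was lost without replicate 1 or 2 at 2% O2, without replicate 2, 3 or 4 at 20% O2 (limma adjusted p = 0.0637 to 0.167) and with 75th percentile scaling (limma adjusted p = 0.0629).

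NUPR1, a small chromatin-associated stress protein, fell furthest among the regulators on withdrawal. It read 10.65, 10.49 and 10.55 in withdrawn HepG2S1, 11.41, 11.18 and 11.53 with the drug at 2% O2, 11.50, 11.60, 11.53 and 11.50 with it at 20% O2, and 11.12, 11.19 and 11.24 in HepG2. Withdrawn arrays were the lowest of all, below HepG2 as well, with a change on withdrawal of -0.97 (SE 0.07, limma adjusted p = 1.44e-06). The drop left NUPR1 at 0.511 of its level with the drug. TRIB3, a pseudokinase that restrains ATF4 and CHOP, changed by -0.22 on withdrawal (limma adjusted p = 0.0253), a call lost without any withdrawn array or without replicate 2 or 3 with the drug (limma adjusted p = 0.0518 to 0.084).

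ATF5, a bZIP factor under the same translational control as ATF4, went the other way. It read 8.25, 8.15 and 8.17 after withdrawal, 7.78, 7.66 and 7.74 with the drug at 2% O2, 7.67, 7.42, 7.59 and 7.63 with it at 20% O2, and 8.29, 8.38 and 8.54 in HepG2. All 7 arrays with the drug lay below all 6 without it. ATF5 rose by 0.61 on withdrawal (SE 0.07, limma adjusted p = 3.89e-05) and stood at -0.83 in HepG2S1 with the drug relative to HepG2 (SE 0.07). ATF3, a bZIP factor induced by many stresses, likewise rose by 0.38 on withdrawal (SE 0.07, limma adjusted p = 0.00256) and stood at -0.28 in HepG2S1 with the drug relative to HepG2 (limma adjusted p = 0.00435).

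The remaining regulators had no call on withdrawal or at 2% O2. CEBPB, a C/EBP factor, was 0.24 higher in HepG2S1 with the drug than in HepG2 (SE 0.06), and CEBPG, a dimer partner of ATF4, stood at -0.39 there (SE 0.05). JDP2, a bZIP repressor of AP-1 sites, was called in 1 comparison alone, at 0.15 above HepG2 after withdrawal (limma adjusted p = 0.0381). That call was lost without any withdrawn array or HepG2 replicate 1 or 2 (limma adjusted p = 0.0531 to 0.121). With 75th percentile scaling the value against HepG2 was 0.10 (limma adjusted p = 0.173). The JDP2 change on withdrawal was 0.16, and it passed under 5 of the alternatives (limma adjusted p = 0.00345 to 0.0486).

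Of the kinases and the phosphatase subunit that set eIF2 phosphorylation, 1 changed on withdrawal. EIF2AK3, the kinase PERK, read 9.57, 9.54 and 9.37 after withdrawal, 10.06, 10.03 and 9.90 with the drug at 2% O2, 9.92, 9.79, 9.84 and 9.85 with it at 20% O2, and 9.25, 9.13 and 9.23 in HepG2. The order with-drug, withdrawn, HepG2 held without overlap. On withdrawal it fell by 0.36 (SE 0.06, limma adjusted p = 0.001) and was 0.65 above HepG2 in HepG2S1 with the drug (SE 0.06). EIF2AK4, the tRNA sensor GCN2, passed in none of the 5 comparisons, with changes of -0.11 to 0.14. PPP1R15A, the GADD34 subunit that returns eIF2 to its unphosphorylated state, stood relative to HepG2 at -0.63 after withdrawal and -0.56 with the drug at 20% O2 (SE 0.11 and 0.10). Its change on withdrawal was -0.07 (limma adjusted p = 0.726).

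CHAC1, which breaks down glutathione, stood apart from the genes that fell with drug removal. It read 9.56, 9.63 and 9.60 after withdrawal, 9.60, 9.25 and 9.64 with the drug at 2% O2, 9.10, 9.26, 9.13 and 9.02 with it at 20% O2, and 7.87, 8.03 and 7.51 in HepG2. Every HepG2S1 array lay far above every HepG2 array. It was the only gene of the 36 that was higher in HepG2S1 with the drug than in HepG2 (1.32, SE 0.11) and higher again after withdrawal (0.47, SE 0.11, limma adjusted p = 0.00876). Its rise at 2% O2 of 0.37 (limma adjusted p = 0.0404) came with overlapping arrays and was lost without replicate 1 or 3 at 2% O2, without replicate 1, 3 or 4 at 20% O2 (limma adjusted p = 0.0642 to 0.152) and with 75th percentile scaling (limma adjusted p = 0.0725). SESN2, a stress-induced inhibitor of mTORC1, stood relative to HepG2 at -0.53 after withdrawal and -0.68 with the drug at 20% O2 (SE 0.07 each). It rose by 0.28 at 2% O2 (limma adjusted p = 0.0138, and 0.0674 without replicate 1 at 2% O2).

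The serine and mitochondrial folate enzymes fell on withdrawal in 5 of 6 cases, and none rose. ALDH1L2, which oxidises formyl-tetrahydrofolate in mitochondria, read 7.11, 7.14 and 6.93 after withdrawal, 8.30, 8.17 and 7.98 with the drug at 2% O2, 8.18, 7.92, 8.27 and 8.06 with it at 20% O2, and 9.13, 9.04 and 9.10 in HepG2. The withdrawn arrays, the arrays with the drug and the HepG2 arrays formed 3 separate levels. On withdrawal ALDH1L2 fell by 1.05 (SE 0.09, limma adjusted p = 3.14e-06). With the drug it stood at -0.98 relative to HepG2 (SE 0.09). Withdrawn cells held 0.245 of the HepG2 level, the lowest ratio of the 36 in that comparison.

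PHGDH, which opens the serine pathway, read 11.29, 11.22 and 11.13 after withdrawal, 11.75, 11.62 and 11.76 with the drug at 2% O2, 11.92, 11.92, 11.83 and 11.83 with it at 20% O2, and 11.78, 11.86 and 11.95 in HepG2. HepG2S1 with the drug at 20% O2 overlapped HepG2 (difference 0.01, 95% interval -0.12 to 0.14). The withdrawn arrays were the lowest, and PHGDH fell by 0.66 on withdrawal (SE 0.06, limma adjusted p = 6.35e-06). PSAT1, the next enzyme, fell by 0.50 on withdrawal (SE 0.05). Its change of -0.21 at 2% O2 (SE 0.05, limma adjusted p = 0.0142) was lost without replicate 2 at 2% O2 (limma adjusted p = 0.0791). PSPH, which completes serine synthesis, stood at -0.45 relative to HepG2 with the drug (SE 0.11), and its other array row at -0.90. Its withdrawal change of -0.26 had a limma adjusted p of 0.116, and its other array row had -0.11. The change of -0.26 passed under 3 of the alternatives (limma adjusted p = 0.0286 to 0.033).

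SHMT2, which splits serine into glycine and a one-carbon unit in mitochondria, separated withdrawal from low oxygen. It read 12.18, 12.18 and 12.19 after withdrawal, 12.71, 12.65 and 12.64 with the drug at 2% O2, 12.45, 12.46, 12.43 and 12.44 with it at 20% O2, and 12.35, 12.28 and 12.42 in HepG2. The 3 HepG2S1 groups were tight and did not overlap. SHMT2 fell by 0.26 on withdrawal (SE 0.05, limma adjusted p = 0.00126) and rose by 0.22 at 2% O2 (SE 0.05, limma adjusted p = 0.00595). MTHFD2, the mitochondrial methylene-tetrahydrofolate dehydrogenase, fell by 0.30 on withdrawal (SE 0.05) and stood at -0.33 relative to HepG2 with the drug (SE 0.05).

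Among the other amino acid enzymes, ASNS showed the largest change on withdrawal of all 36 genes. ASNS, asparagine synthetase, whose promoter element is printed above, read 9.72, 9.68 and 9.59 after withdrawal, 10.57, 10.27 and 10.49 with the drug at 2% O2, 10.79, 10.66, 10.74 and 10.74 with it at 20% O2, and 10.94, 10.86 and 11.02 in HepG2. The withdrawn arrays lay below all others by a wide gap. On withdrawal ASNS fell by 1.07 (SE 0.07, limma adjusted p = 4.54e-07), to 0.477 of the level with the drug. With the drug at 20% O2 it stood at -0.21 relative to HepG2 (limma adjusted p = 0.017), and this call was lost without HepG2 replicate 3 (-0.17, limma adjusted p = 0.0781). The change at 2% O2 of -0.29 (limma adjusted p = 0.013) was lost without replicate 2 at 2% O2 (-0.20, limma adjusted p = 0.0767).

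CTH, which makes cysteine from cystathionine, read 9.74, 9.69 and 9.62 after withdrawal, 10.01, 9.79 and 9.90 with the drug at 2% O2, 10.48, 10.38, 10.42 and 10.37 with it at 20% O2, and 10.76, 10.62 and 10.75 in HepG2. Both changes made to HepG2S1 lowered it without overlap. CTH fell by 0.73 on withdrawal (SE 0.06, limma adjusted p = 3.14e-06) and changed by -0.51 at 2% O2 (SE 0.06, limma adjusted p = 5.76e-05). PYCR1, which completes proline synthesis, fell by 0.57 on withdrawal (SE 0.07) and stood at -0.81 relative to HepG2 with the drug (SE 0.07). ALDH18A1, which starts proline synthesis, had no call on withdrawal (-0.06) and rose by 0.23 at 2% O2 (limma adjusted p = 0.0219), a call lost without replicate 1 or 2 at 2% O2 or replicate 3 or 4 at 20% O2 (limma adjusted p = 0.0532 to 0.122).

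Of the 7 amino acid transporters, 6 were lower in HepG2S1 with the drug than in HepG2, where 27.2% of all genes were lower. On withdrawal 3 rose and 1 fell, where 10.1% of all genes rose and 7.90% fell. SLC7A1, the arginine and lysine carrier, read 9.84, 9.76 and 9.78 after withdrawal, 9.76, 9.55 and 9.81 with the drug at 2% O2, 9.78, 9.78, 9.70 and 9.67 with it at 20% O2, and 11.31, 11.34 and 11.51 in HepG2. The HepG2S1 groups overlapped one another and all lay far below HepG2. SLC7A1 stood at -1.66 relative to HepG2 with the drug (SE 0.07), that is 0.318 of its level. Its withdrawal value was 0.06 (limma adjusted p = 0.624). SLC1A4, a carrier of small neutral amino acids, stood at -1.45 relative to HepG2 with the drug (SE 0.06) and had -0.12 on withdrawal (limma adjusted p = 0.228).

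SLC7A11, the cystine-importing subunit of system xc-, read 11.10, 11.10 and 10.92 after withdrawal, 10.54, 10.34 and 10.62 with the drug at 2% O2, 10.92, 10.54, 10.82 and 10.62 with it at 20% O2, and 12.12, 11.96 and 11.82 in HepG2. HepG2 arrays were the highest. SLC7A11 stood at -1.24 relative to HepG2 with the drug (SE 0.10, limma adjusted p = 2.02e-08). Its rise of 0.31 on withdrawal (limma adjusted p = 0.0383) was lost without withdrawn replicate 1 or 2 or replicate 2 or 4 with the drug (limma adjusted p = 0.104 to 0.142).

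SLC38A2, the adaptive carrier of small neutral amino acids, rose by 0.30 on withdrawal (SE 0.06, limma adjusted p = 0.00207) and stood at -0.54 relative to HepG2 with the drug (SE 0.06). SLC7A5, the large neutral amino acid carrier LAT1, rose both on withdrawal, by 0.23, and at 2% O2, by 0.29 (SE 0.05 each, limma adjusted p = 0.00375 and 0.00109). SLC3A2, the heavy chain that SLC7A5 and SLC7A11 share, had 0.12 on withdrawal (limma adjusted p = 0.105) and rose by 0.17 at 2% O2 (limma adjusted p = 0.0238), the rise being lost without any 2% O2 array or without replicate 4 at 20% O2 (limma adjusted p = 0.0535 to 0.0708). It was also lost with 75th percentile scaling (limma adjusted p = 0.0815). SLC1A5, the glutamine carrier ASCT2, was the 1 transporter that fell on withdrawal, with a change of -0.31 (SE 0.06, limma adjusted p = 0.00203), and its other array row had -0.18. SLC1A5 stood at -0.49 relative to HepG2 with the drug, and -0.31 when its rows were averaged (limma adjusted p = 0.000328).

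XPOT exports tRNA from the nucleus. On withdrawal it fell by 0.43 (SE 0.06, limma adjusted p = 0.000102), and it was 0.79 above HepG2 in HepG2S1 with the drug (SE 0.06). Its change at 2% O2 was -0.17, with a limma adjusted p of 0.0513, and it passed under 7 of the alternatives.

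The secreted factors and the receptor differed from each other. STC2, a stress-induced glycoprotein hormone, read 10.04, 10.12 and 10.10 after withdrawal, 10.58, 10.51 and 10.55 with the drug at 2% O2, 9.84, 9.71, 9.72 and 9.67 with it at 20% O2, and 10.19, 10.15 and 10.34 in HepG2. The arrays at 2% O2 were the highest of all and those with the drug at 20% O2 the lowest. STC2 rose by 0.35 on withdrawal (SE 0.06, limma adjusted p = 0.000719) and by 0.81 at 2% O2 (SE 0.06, limma adjusted p = 3.1e-07).

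VLDLR, a receptor for triglyceride-rich lipoproteins, read 8.47, 8.36 and 8.21 after withdrawal, 9.14, 9.48 and 9.12 with the drug at 2% O2, 8.56, 8.41, 8.32 and 8.44 with it at 20% O2, and 9.75, 9.87 and 9.94 in HepG2. The 2% O2 arrays lay between the other HepG2S1 arrays and HepG2 without overlap. VLDLR rose at 2% O2 by 0.82 (SE 0.09, limma adjusted p = 2.7e-05) or 1.76-fold. Withdrawal gave -0.08 (limma adjusted p = 0.623).

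GDF15, a stress cytokine, read 11.12, 11.10 and 11.12 after withdrawal, 11.51, 11.13 and 11.60 with the drug at 2% O2, 11.67, 11.81, 11.68 and 11.74 with it at 20% O2, and 12.70, 12.63 and 12.77 in HepG2. The HepG2 arrays were the highest and the withdrawn arrays the lowest. GDF15 fell by 0.61 on withdrawal (SE 0.09, limma adjusted p = 0.000229). Its change of -0.31 at 2% O2 (limma adjusted p = 0.0276) shrank to -0.17 without replicate 2 at 2% O2 (limma adjusted p = 0.114) and was also lost without replicate 2 or 4 at 20% O2 (limma adjusted p = 0.0707 and 0.0635). FGF21, a metabolic hormone, stayed at 6.01 to 6.28 on all 13 arrays and passed in none of the 5 comparisons.

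**Figure D2:**
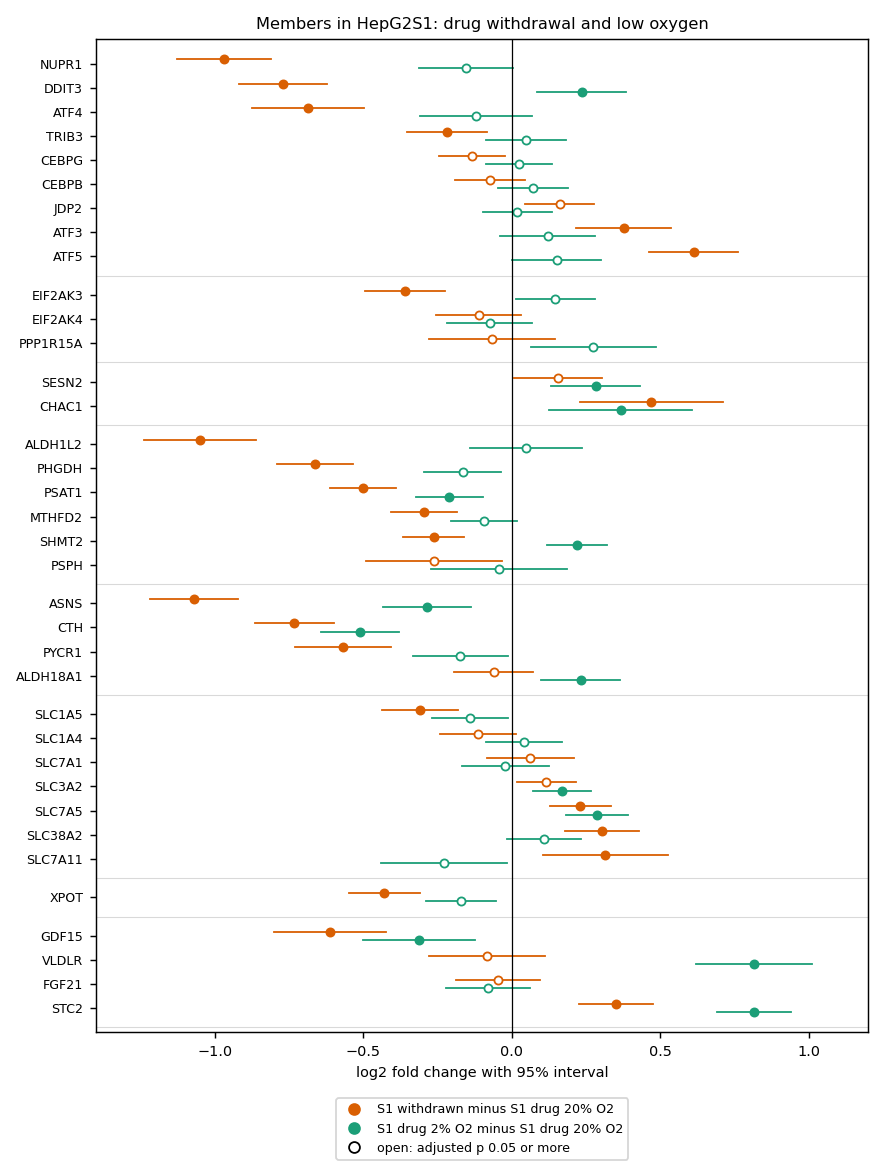
Log2 fold change (x axis) of the 36 measured genes, grouped by role, for withdrawn HepG2S1 minus HepG2S1 with sorafenib at 20% O2 (orange) and for HepG2S1 with sorafenib at 2% O2 minus 20% O2 (green). Points are limma estimates with 95% intervals, filled where called. ASNS, ALDH1L2 and NUPR1 lie furthest left for withdrawal, at -1.07, -1.05 and -0.97, and VLDLR and STC2 furthest right for low oxygen, at 0.82 and 0.81.

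Withdrawal and low oxygen were both measured from the same 4 arrays with the drug at 20% O2, so their values are given side by side and not correlated. Of the 16 genes that fell on withdrawal, ASNS, CTH, GDF15 and PSAT1 also fell at 2% O2, DDIT3 and SHMT2 rose, and 10 had no call there. Of the 7 that rose on withdrawal, CHAC1, SLC7A5 and STC2 also rose at 2% O2 and 4 had no call. The 2% O2 calls of ASNS, CHAC1, DDIT3, GDF15 and PSAT1 were each lost on leaving out some single array. The share of all genes with these pairs of calls was not counted, so the pairs are a description.

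The difference between both treatments was tested directly, by setting HepG2S1 with the drug at 2% O2 against withdrawn HepG2S1. In that comparison 19 of the 36 were higher and 4 lower, where 10.8% of all genes were higher and 7.73% lower, and the median was 0.22 against -0.03 over all genes. Of the 10 serine, folate and other amino acid enzymes, 9 were higher with the drug at 2% O2, and PSPH was not called (0.22, limma adjusted p = 0.221). MTHFD2 was among the 9 at 0.20, but its other array row had 0.09. Its call was lost when its rows were averaged (0.15, limma adjusted p = 0.104). The largest differences were 1.09 for ALDH1L2, 1.00 for DDIT3, 0.90 for VLDLR, 0.81 for NUPR1 and 0.78 for ASNS (SE 0.07 to 0.10). ATF4 was 0.57 higher (SE 0.09, limma adjusted p = 0.000632), EIF2AK3 0.51 and PHGDH 0.50 (SE 0.07 and 0.06).

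The 4 lower genes were SLC7A11 (-0.54, SE 0.11, limma adjusted p = 0.00202), ATF5 (-0.46, SE 0.07), ATF3 (-0.26) and SLC38A2 (-0.20). The calls of ATF3 and SLC38A2, and of GDF15 and PPP1R15A among the higher genes, were each lost without any withdrawn array, and those of CTH and MTHFD2 without withdrawn replicate 2 or 3. At 2% O2 they were lost without replicate 2 or 3 for ATF3, 1 or 2 for SLC38A2, and 1 or 3 for the other 4 (limma adjusted p = 0.0528 to 0.172 over all these). TRIB3 lost its call without replicate 3 at 2% O2 (limma adjusted p = 0.0529). No member of the transporter group was higher, and CHAC1 had -0.10 (limma adjusted p = 0.62).

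**Figure D3:**
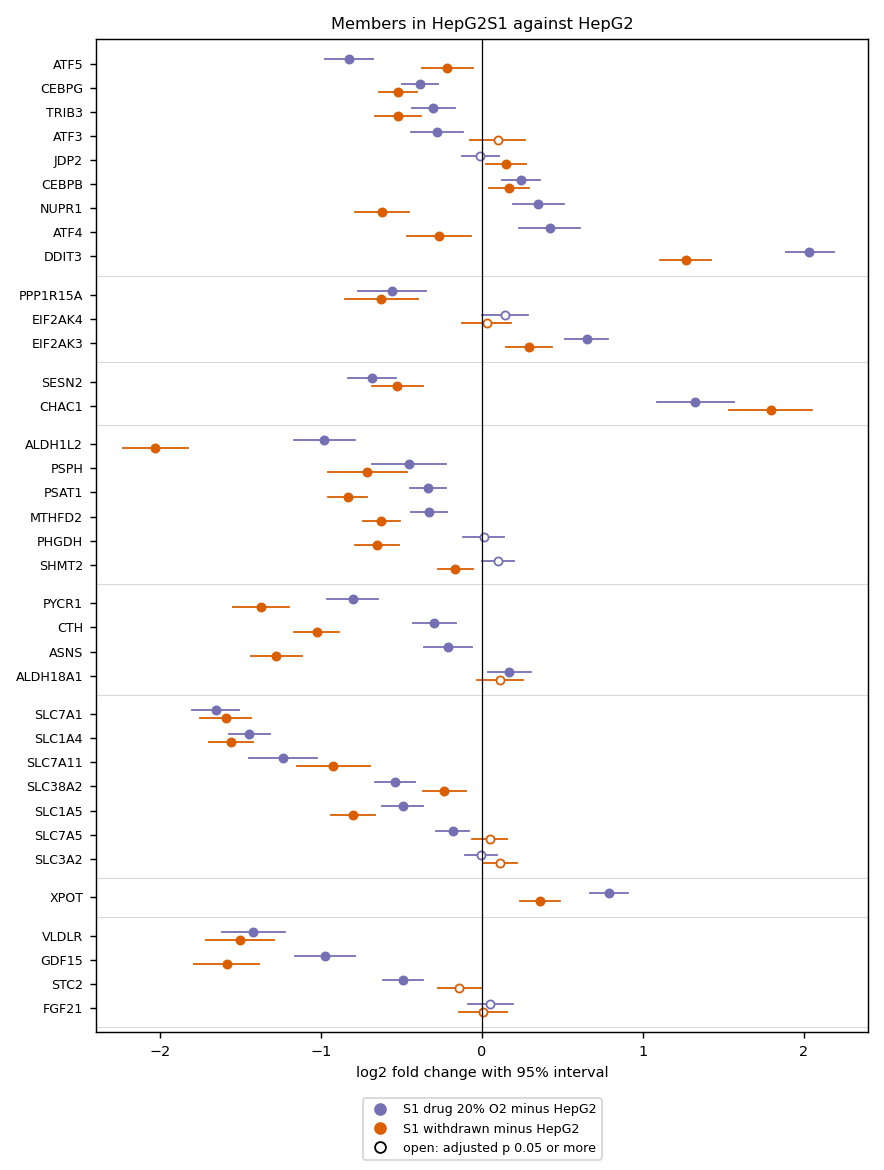
Log2 fold change (x axis) of the 36 measured genes, grouped by role, against HepG2 for HepG2S1 with sorafenib at 20% O2 (purple) and for withdrawn HepG2S1 (orange). Points are limma estimates with 95% intervals, filled where called. DDIT3 at 2.03 and 1.26 and CHAC1 at 1.32 and 1.79 lie to the right in both, and SLC7A1, SLC1A4, VLDLR and GDF15 lie to the left in both.

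Against HepG2, the genes fell into patterns by what withdrawal then did. ATF4, DDIT3, EIF2AK3, NUPR1 and XPOT, 5 genes, were higher in HepG2S1 with the drug and fell when it was withdrawn. ATF3, ATF5, SLC38A2, SLC7A11, SLC7A5 and STC2, 6 genes, were lower with the drug and rose when it was withdrawn. A further 9 genes, among them ALDH1L2, PYCR1, CTH and GDF15, were lower with the drug than in HepG2 and fell when it was withdrawn. Both comparisons use the arrays with the drug at 20% O2, so a high or low reading there moves them in opposite directions. The share of all genes with each pattern was not counted, and the patterns are a description.

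The fold changes of withdrawn HepG2S1 against HepG2 do not use those arrays, though their SEs and p-values draw on the spread within all 4 groups. There ATF4 was -0.27 and NUPR1 -0.62 relative to HepG2 (SE 0.09 and 0.08), while DDIT3 was 1.26, XPOT 0.36 and EIF2AK3 0.29 higher (SE 0.06 to 0.07). ATF5 was lower at -0.22 (limma adjusted p = 0.0219, and 0.0594 to 0.109 without withdrawn replicate 2 or 3 or HepG2 replicate 3) and SLC38A2 at -0.24 (SE 0.06). SLC7A11 was lower at -0.93 (SE 0.11, limma adjusted p = 1.44e-06). ATF3 at 0.10, SLC7A5 at 0.05 and STC2 at -0.14 did not pass (limma adjusted p = 0.337, 0.484 and 0.066), though STC2 passed under 5 of the alternatives (limma adjusted p = 0.00947 to 0.0459), at -0.19 with 75th percentile scaling. Furthest below HepG2 were ALDH1L2 (-2.03), SLC7A1 and GDF15 (-1.59 each), SLC1A4 (-1.56), VLDLR (-1.50), PYCR1 (-1.37), ASNS (-1.28) and CTH (-1.03), with SEs of 0.06 to 0.10. All 6 serine and folate enzymes were lower than HepG2 after withdrawal, from SHMT2 at -0.17 to ALDH1L2.

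Other genes of the same pathways were followed through lists that were chosen with earlier results of these data known. The counts below stand against 7.90% of all genes lower and 10.1% higher on withdrawal, 6.17% lower and 8.99% higher at 2% O2, and 27.2% lower and 30.1% higher with the drug against HepG2. The cytosolic tRNA synthetases, which charge tRNA with amino acids and include known ATF4 targets, had 19 measured genes, of which 11 (57.9%) fell and 2 (10.5%) rose on withdrawal (median -0.21). WARS1 was at -0.65 and MARS1 at -0.55 (SE 0.06 and 0.05), the tryptophan and methionine enzymes. At 2% O2 7 of the 19 (36.8%) fell and none rose (median -0.12), led by YARS1 at -0.25 and MARS1 at -0.23. In HepG2S1 with the drug against HepG2, 12 (63.2%) were higher and 3 (15.8%) lower, led by TARS1 at 1.18 and LARS1 at 0.81. Directly compared, HepG2S1 with the drug at 2% O2 had 6 of the 19 higher and 3 lower than withdrawn HepG2S1, where 10.8% of all genes were higher and 7.73% lower, with CARS1 at 0.54 and WARS1 at 0.46.

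The endoplasmic reticulum chaperones and their ATF6 and XBP1 regulators, 19 measured genes, responded at 2% O2, where 10 (52.6%) rose and 1 fell (median 0.17). EDEM1, which aids the disposal of misfolded glycoproteins, rose by 0.39, and the disulfide isomerase PDIA4 by 0.38 (SE 0.06 and 0.05). On withdrawal 2 rose and 4 fell, led by the co-chaperone DNAJB9 at -0.67 and the degradation factor SEL1L at -0.31.

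Of 12 other reported ATF4 targets, 4 fell and 2 rose on withdrawal, with KLHL24, a ubiquitin ligase adaptor, at -0.75 and ERO1A, the disulfide-forming oxidase, at 0.47 (SE 0.07 each). At 2% O2 4 rose and 3 fell. ERO1A at 1.23 and VEGFA, the vascular growth factor, at 1.02 led the rises, and both are also well-known targets of the oxygen-regulated factor HIF-1. In HepG2S1 with the drug against HepG2, 5 of the 12 were higher and 3 lower (median 0.04). PMAIP1, which encodes the death-promoting protein NOXA, stood at 2.45 there and the pseudokinase gene TRIB1 at -1.76 (SE 0.07 each).

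Of 15 further amino acid enzymes, 2 rose and 2 fell on withdrawal (13.3% each), with ASS1 and GOT1 at -0.38 each, while against HepG2 the branched-chain transaminase BCAT1 was at -4.17 and glutamine synthetase GLUL at -4.10 with the drug. Of 17 further transporters, 2 rose and 2 fell on withdrawal (11.8% each), with SLC43A1 at -0.78 and the glycine carrier SLC6A9 at -0.60. At 2% O2 5 of the 17 rose and 3 fell, with the taurine carrier SLC6A6 at 0.65 and the cationic carrier SLC7A2 at -0.82. Between the lines the glutamate carrier SLC1A3 was 3.68 higher and SLC1A2 at -2.91 in HepG2S1 with the drug than in HepG2. BCAT1 and SLC1A2 averaged 5.565 and 5.66 in HepG2S1 with the drug, and SLC1A3 averaged 5.56 in HepG2. These means lay below the typical lower quartile of an array (5.76).

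Of 11 further folate and serine enzymes, 3 rose and 1 fell on withdrawal, with the mitochondrial folate carrier SLC25A32 at 0.26 and AMT of the glycine cleavage system at -0.31. Against HepG2, GLDC and AMT of that system were at -2.72 and -1.48 in HepG2S1 with the drug. Of 16 further eIF2 regulators, 2 rose and 2 fell on withdrawal (12.5% each), with EIF2S1, the alpha subunit of eIF2, at 0.21 and IMPACT, an inhibitor of GCN2, at -0.22. The folate and serine enzymes thus had 27.3% higher and 9.09% lower on withdrawal, in a list of 11, against 10.1% and 7.90% of all genes. The further amino acid enzymes, transporters and eIF2 regulators had shares of 11.8% to 13.3% in each direction. IMPACT was 1.87 and the constitutive phosphatase subunit PPP1R15B 1.10 higher in HepG2S1 with the drug than in HepG2 (SE 0.06 and 0.04).

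**Figure D4:**
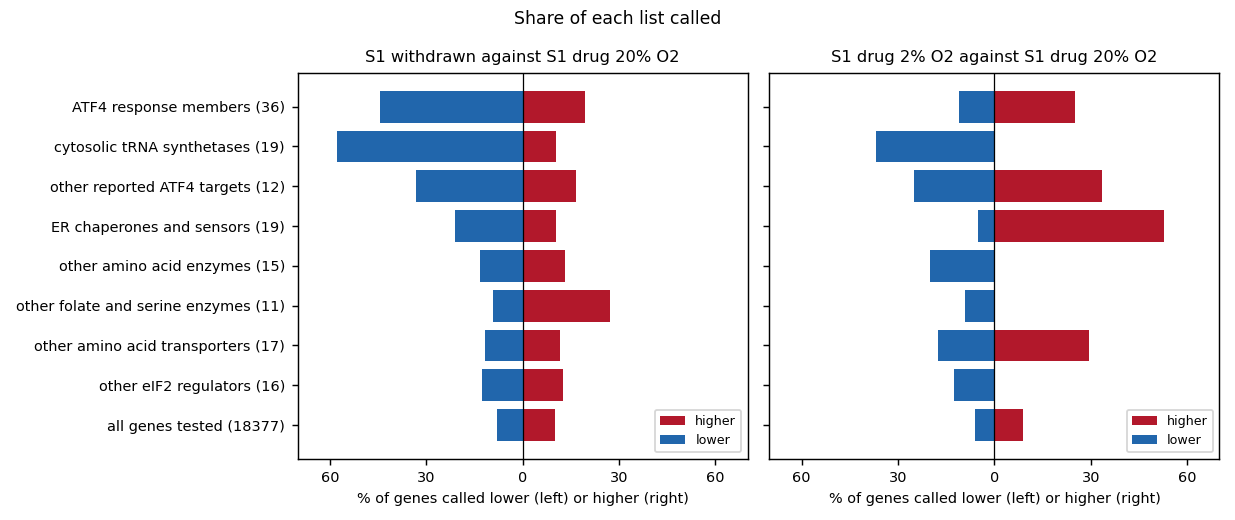
Percent of the measured genes of each list called lower (blue, left of 0) or higher (red, right of 0) in limma, on drug withdrawal (left panel) and at 2% O2 (right panel), with the number measured in brackets and all 18377 genes at the bottom. The ATF4 response stood at 44.4% lower and 19.4% higher on withdrawal, against 7.90% and 10.1% of all genes. At 2% O2 it stood at 11.1% lower and 25.0% higher, against 6.17% and 8.99% of all genes.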

How the data were processed

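Total RNA was measured on Affymetrix HuGene 1.0 ST arrays, 1 per flask. The authors deposited a single table on the log2 scale, for which the submitters' processing notes name RMA. RMA corrects background, equalises quantiles between arrays and summarises probes, and it draws low signals together. The RMA version is not given in the sources used here, nor is the annotation release. The table had 28926 rows, of which 19310 carried 1 gene symbol, 1752 several and 7864 none. Symbols were updated through Entrez IDs by means of RefSeq's gene table (GRCh38.p14). Of 685 genes with several rows, the row with the highest mean was kept, which left 18377 genes. SLC1A5, MTHFD2 and PSPH were the measured members with more than 1 row.

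All 13 arrays entered 1 limma fit over the 4 groups (limma 3.58.1, R 4.3.3, lmFit and eBayes), with Benjamini-Hochberg adjustment over all genes within each of 5 comparisons and calls at an adjusted p of 0.05. Fold changes are the first group minus the second. The fit was also run on simulated data with independent errors between arrays, so that run does not bear on dependence between flasks. All listed genes with a row were named, and from each other list up to 2 called genes with the largest change in a comparison. The members and the other lists were chosen with earlier results of these data known. No scan date or batch was given. Replicate numbers are not from the labels and were given here within each group, in the order of the running numbers in the labels. Alternatives were array weights, 75th percentile scaling, a second quantile normalization, a low-signal filter, robust moderation with a trend, fits on fewer groups, row means, all rows, an adjusted p of 0.01 and each array left out. Promoters came from RefSeq on GRCh38.p14. Figures used matplotlib 3.10.9 under Python 3.11.15.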

Additional observations from a re-analysis of the deposited data

Results flagged for a closer look

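PYCR1, the last enzyme of proline synthesis, had 1 array far from the others in HepG2S1 with sorafenib at 20% O2, the only group of 4. Its values were 10.83, 10.84, 10.88 and 11.14, and the gap below the highest array took up 0.838 of the group's range, just past Dixon's critical value for 4 samples. The highest value belonged to replicate 2. All 36 measured genes were looked at in this way, and chance alone flags about 5% of groups. PYCR1 kept its calls on withdrawal and against HepG2 when any 1 array was left out.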

How the results depend on the processing

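No called member changed sign under any alternative run. With any 1 array left out, the number of members called ranged from 6 to 7 higher and 15 to 16 lower on withdrawal, 4 to 9 higher and 1 to 5 lower at 2% O2, 7 to 9 higher and 21 to 22 lower in HepG2S1 with the drug against HepG2, 4 to 8 higher and 21 to 24 lower in withdrawn HepG2S1 against HepG2, and 14 to 20 higher and 2 to 4 lower at 2% O2 against withdrawn HepG2S1. The 2% O2 counts rested most on single arrays: 4 were higher without its replicate 1 and 5 without replicate 4 at 20% O2, and 1 was lower without its replicate 2. The count lower at 2% O2 against withdrawn HepG2S1 came to 2 without any 1 withdrawn array or replicate 2 at 2% O2. Under the other settings the counts were 6 to 9 higher and 15 to 18 lower on withdrawal, 7 to 9 and 21 to 22 with the drug against HepG2, and 4 to 7 and 20 to 24 for withdrawn HepG2S1 against HepG2. At an adjusted p of 0.01, 4 members were higher and 1 lower at 2% O2 against 20% O2, and 2 were lower at 2% O2 against withdrawn cells, as also with all rows tested (2). With 75th percentile scaling 7 were lower and 6 higher at 2% O2 against 20% O2, and of all calls there 35.2% were higher (1271 against 2345 lower) where the main scaling gave 59.3% (1653 against 1133). For 2% O2 against withdrawn cells that share was 48.2% (main scaling 58.4%). Array weights called 2861 genes higher and 2370 lower on withdrawal (1852 and 1451 without weights), 2227 lower at 2% O2 (1133 without) and 2453 lower at 2% O2 against withdrawn cells (1420 without). An adjusted p of 0.01 left 1123 and 847 on withdrawal, 926 and 372 at 2% O2, and 1261 and 788 between them. At 2% O2, 1077 genes were higher without its replicate 2, and 582, 521 and 698 lower without its replicate 1, its replicate 2 or replicate 4 at 20% O2. The causes were not tested. No paired analysis was possible because the labels number samples in 1 running order and share no replicate number between groups. Without detection calls, signal over background could not be set.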
